A study of Mus musculus with 2 samples.

Results

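Rod bipolar cells of the mouse retina were picked out of single-cell RNA counts by marker genes, and the wild-type and db/db libraries held 265 of them among 21193 kept cells. Cells were chosen by their own measured counts of unique molecular identifiers (UMIs, the tags that count captured RNA molecules). A rod bipolar cell had 200 or more detected genes, and mitochondrial genes gave no more than 20% of its UMIs. It also needed at least 6 UMIs in sum from the ON bipolar genes Trpm1, Isl1, Grm6, Pcp2 and Gng13, and at least 3 UMIs in sum from Prkca, Car8, Vstm2b and Sebox. The cone genes Arr3, Opn1sw, Opn1mw, Gnat2, Pde6h and Pde6c had to stay under 0.5% of its UMIs. The wild-type library held 159 such cells among 10230 kept cells, and the db/db library 106 among 10963.

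Both groups were C57BLKS mice of 13 weeks that received no treatment. The wild-type group carried the intact leptin receptor gene (Leprwt/wt), and the other group was homozygous for the db allele (Leprdb/db), a mouse model of obesity and type 2 diabetes in which the receptor defect is present in the whole body. Retinas of 2 mice per genotype were dissociated with enzymes and made into 1 droplet library per genotype with the 10x Genomics 3' v3.1 kit, so no cell can be assigned to a mouse. With 1 library per genotype the genotypes were not tested against each other, and every genotype difference is given with a 95% interval that covers counting error only. Paired values are given with wild type first. Lepr itself (ENSMUSG00000057722) had 0 UMIs in the rod bipolar cells of either library and 6 UMIs in the other kept cells of each. The db allele is a splicing defect, which counts of 3' ends cannot check.

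Rod bipolar cells carry the signal of rods, the photoreceptors of dim light, to AII amacrine cells. At their dendrites the glutamate receptor mGluR6, encoded by Grm6, acts through a G protein of the Go class to close the cation channel TRPM1, so that light, which lowers glutamate release, depolarizes the cell. Their axon terminals release glutamate at ribbon synapses and receive GABA and glycine from amacrine cells. ON cone bipolar cells use the same receptor cascade but take their input from cones. They are the comparison cell type here and were defined as cells past the same ON and cone limits with fewer than 3 UMIs of the rod bipolar genes and at least 2 UMIs of Scgn, Sox6, Chrm2, Slitrk5, Htr3a, Lrrtm1, Cck, Igfn1, Kcng4 and Cpne9. They numbered 240 (wild type) and 149 (db/db).

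The cut at 3 rod bipolar UMIs fell where cell numbers were declining. Among the cells past the ON and cone limits, 55 wild-type and 27 db/db cells had exactly 1 rod bipolar UMI and 38 and 23 had exactly 2, and these stayed outside. With exactly 3, 4 and 5 such UMIs there were 19, 10 and 7 wild-type and 13, 6 and 5 db/db cells, which were taken in. No cell with enough rod bipolar UMIs had exactly 5 ON UMIs in either library, and 2 wild-type cells had exactly 6. A further 224 wild-type and 213 db/db kept cells had at least 3 rod bipolar UMIs without being chosen, of which 221 and 211 were under the ON minimum. Those cells were deep, with medians of 13961 and 10137 UMIs per cell, and a median of 7.07% and 6.60% of their UMIs came from rod genes. The libraries shared 26 cell barcodes among kept cells, and 1 rod bipolar cell of each library had such a barcode.

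The rule fixed a minimum for the ON and rod bipolar sums, so their levels describe the choice. The median rod bipolar cell had 67 ON UMIs (wild type) and 68 (db/db), and 13 and 12 rod bipolar UMIs. Strip2, a rod bipolar marker that the rule did not use, had a UMI in 46.2% and 42.4% of rod bipolar cells thinned to 2000 UMIs, compared with 12.9% and 4.32% of ON cone bipolar cells and 1.31% and 0.830% of all other kept cells. Depth was close between libraries, with medians of 4121 and 4164.5 UMIs and 2049 and 2054.5 genes per cell, and the summed UMIs were 776641 and 484017. The share of UMIs from mitochondrial genes had a median of 6.98% (wild type) and 8.60% (db/db).

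Part of the cells also held RNA of neighbouring cell types. Rod genes gave over 2% of UMIs in 51 of 159 wild-type and 27 of 106 db/db rod bipolar cells. ON cone bipolar genes reached at least 3 UMIs in 17 and 19 cells, amacrine genes in 6 and 1, and Müller glia genes passed 0.3% of UMIs in 4 and 2. The cells free of all 4 numbered 95 (wild type) and 63 (db/db), and list results between genotypes that turn with the mixed cells are given with and without them. Of the marker lists for other cells, OFF cone bipolar genes summed to 81 and 53 UMIs over the rod bipolar cells, amacrine genes to 78 and 53, endothelial genes to 44 and 12, horizontal cell genes to 40 and 42 and ganglion cell genes to 14 and 17. By contrast, microglia genes summed to 5 and 3 UMIs with 8 of 10 genes at 0 in both libraries, and pigment epithelium genes summed to 6 and 1 UMIs with 5 of 8 genes at 0.

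The promoters of 3 genes are shown because Otx2, a homeodomain factor made by photoreceptors and bipolar cells, and its relative Crx recognise the letters TAATCC. Each window runs from 250 bases before to 50 bases after a RefSeq transcription start (GRCm38.p6), is written 5′ to 3′ on the gene's strand in lower case, and has in capitals every TAATCC or its reverse complement GGATTA. Trpm1, on the plus strand at chr7:64153585-64153884, encodes the transduction channel and was used to choose the cells. Trpm1 has 2 such windows, and the one shown was picked because it holds the motif. Mdga1, on the minus strand at chr17:29887833-29888132, encodes a cell-surface protein of synapses that was not used. Sebox, on the plus strand at chr11:78503263-78503562, encodes a homeodomain factor that was used and has no match in this window.
Trpm1: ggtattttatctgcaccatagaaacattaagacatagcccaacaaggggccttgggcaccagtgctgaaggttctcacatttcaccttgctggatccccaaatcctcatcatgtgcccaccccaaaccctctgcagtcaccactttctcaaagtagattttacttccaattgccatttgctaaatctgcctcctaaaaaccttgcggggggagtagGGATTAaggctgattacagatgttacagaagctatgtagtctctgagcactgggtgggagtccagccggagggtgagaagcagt
Mdga1: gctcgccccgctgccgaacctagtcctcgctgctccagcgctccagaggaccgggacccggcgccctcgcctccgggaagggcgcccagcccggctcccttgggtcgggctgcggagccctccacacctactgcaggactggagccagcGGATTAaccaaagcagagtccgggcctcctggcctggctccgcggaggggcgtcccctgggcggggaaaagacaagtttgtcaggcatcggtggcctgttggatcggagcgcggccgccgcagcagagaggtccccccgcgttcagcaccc
Sebox: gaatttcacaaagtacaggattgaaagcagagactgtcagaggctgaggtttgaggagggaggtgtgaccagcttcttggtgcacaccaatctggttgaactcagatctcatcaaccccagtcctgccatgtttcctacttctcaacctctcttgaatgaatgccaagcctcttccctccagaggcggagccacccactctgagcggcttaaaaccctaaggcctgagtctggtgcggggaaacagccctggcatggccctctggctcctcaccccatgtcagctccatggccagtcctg
The match in the Trpm1 window shown began 34 bases before its transcription start, and that in Mdga1 began 101 bases before the RefSeq transcription start of its window, both as GGATTA. The Mdga1 window lies inside the span of that gene in GENCODE M21, chromosome 17 from 29827949 to 29970087, and not at its outer start. Among all 32851 promoter windows of this length, 7.06% held the motif on either strand. The share was 6.06% over the genes tested between the cell types below, 8.42% of 570 windows for genes higher in rod bipolar cells and 5.34% of 824 windows for genes lower in them. RefSeq windows were found by symbol for 406 of the 538 higher and 568 of the 735 lower genes. These matches describe letters in the windows and no binding was measured.

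Levels of the marker genes, given as CPM (UMIs of a gene over all UMIs of the summed cells, scaled to a total of 1000000), separated the cell types in both libraries. These genes chose the cells, so the values are a description without a test. Prkca, which encodes protein kinase C alpha, the classical antigen of rod bipolar cells, was at 1343 CPM (wild type) and 1200 CPM (db/db) in rod bipolar cells, against 28.7 and 31.5 CPM in ON cone bipolar cells. Car8, which encodes a carbonic anhydrase-related protein, was at 653 and 758 CPM against 24.4 and 9.94 CPM. Vstm2b, an immunoglobulin-domain gene, was at 236 and 250 CPM against 13.9 and 19.9 CPM. Sebox was at 451 and 556 CPM against 2.61 and 4.97 CPM. On GRCm38, Prkca (ENSMUSG00000050965) lies on chromosome 11 at 107933387 to 108343928, minus strand, and Car8 on chromosome 4 at 8143362 to 8239041, minus strand. All 4 genes stood far above ON cone bipolar cells in each library. The rule for ON cone bipolar cells allowed fewer than 3 UMIs of these genes in sum. The libraries differed far less from each other, and their log2 ratios with intervals are given below.

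Among the genes of the ON set, Pcp2, a modulator of Go, was at 6905 CPM (wild type) and 6989 CPM (db/db) in rod bipolar cells and at 1316 and 1491 CPM in ON cone bipolar cells. Trpm1 was at 2902 and 2564 CPM against 1113 and 1316 CPM. Grm6 was nearly level between the types, at 211 and 273 CPM in rod bipolar and 219 and 227 CPM in ON cone bipolar cells. After every cell was thinned to 2000 UMIs, Prkca had a UMI in 86.0% of wild-type and 83.8% of db/db rod bipolar cells, compared with 93.7% and 87.7% unthinned. In thinned cells outside the rod bipolar group the Prkca share was 14.3% and 16.8%. Car8 was detected in 76.9% and 80.8% of thinned rod bipolar cells and in 0.9% and 0.5% of the thinned other cells.

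**Figure D1:**
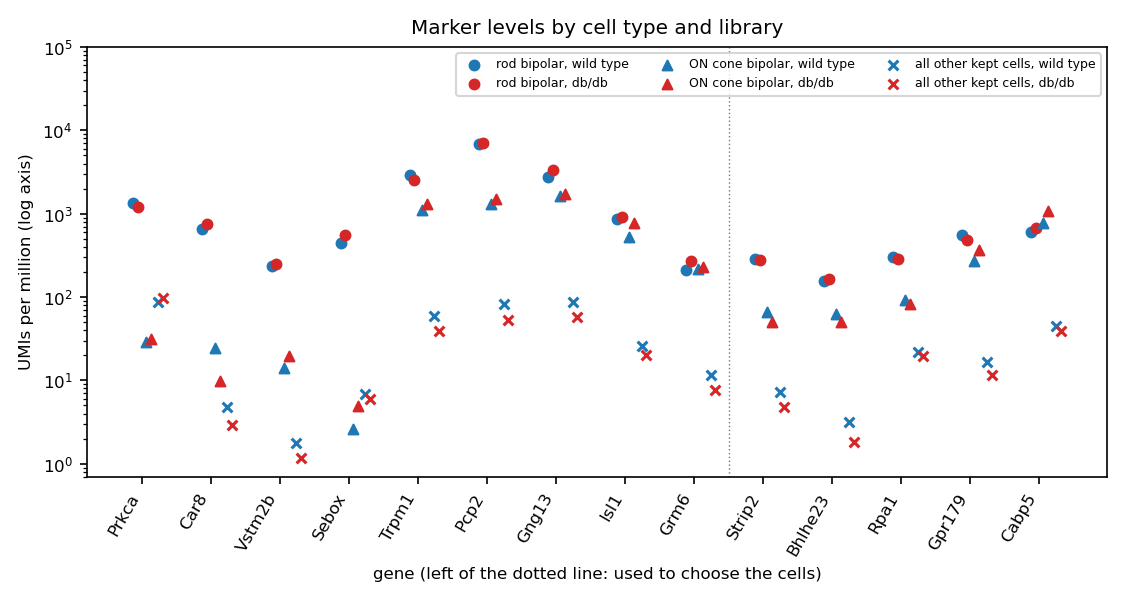
Levels of 14 bipolar genes in CPM (log axis) in rod bipolar cells (circles), ON cone bipolar cells (triangles) and all other kept cells (crosses), wild type in blue and db/db in red, 1 point per library. Genes left of the dotted line chose the cells; Strip2, to its right, stands at 290 and 279 CPM in the rod bipolar sums and at 65.3 and 49.7 CPM in the ON cone bipolar sums.

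The cells differed among themselves in depth, from 640 to 44244 UMIs (wild type) and from 664 to 27510 (db/db), and in marker UMIs. Pcp2 had a median of 35 UMIs per wild-type cell and 31 per db/db cell, with highest values of 99 and 78. Prkca had medians of 6 and 5 UMIs and highest values of 27 and 22. The share of rod RNA ran from 0.241 to 10.5% and from 0.151 to 9.35%. Cells with over 2% rod genes were deeper, with medians of 5164 and 4707 UMIs, and had 80.6 and 79.0 ON UMIs per 10000 against 175 and 174 in the remaining rod bipolar cells.

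Rod bipolar cells made up 1.55% (1.32 to 1.81%, exact Clopper-Pearson) of kept cells for wild type and 0.967% (0.792 to 1.17%) for db/db, a ratio of 0.622 (0.482 to 0.800, exact conditional interval). For ON cone bipolar cells the ratio was 0.579 (0.469 to 0.714), from 2.35% and 1.36%. Among rod bipolar and ON cone bipolar cells together, rod bipolar cells were 39.8% (35.0 to 44.8%) for wild type and 41.6% (35.5 to 47.9%) for db/db, a ratio of 1.04 (0.808 to 1.34). The rule has UMI minimums, and kept cells outside the group had medians of 2293 and 2034 UMIs, so the share was repeated on cells thinned to 2000 UMIs, of which 5800 and 5643 were deep enough. It was then 1.98% and 1.42%, a ratio of 0.715 (0.531 to 0.959). The value is a share of kept cells, so it also depends on how many cells of other types were kept. Fewer rod bipolar cells in the retina, fewer recovered after dissociation and more kept cells of other types cannot be told apart.

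The comparison of rod bipolar with ON cone bipolar cells asked which genes beyond those of the rules separate the types, with the UMIs summed per library and type. In edgeR's quasi-likelihood test with library as a block and Benjamini-Hochberg adjustment, 538 of 8040 tested genes (6.69%) were higher in rod bipolar cells and 735 (9.14%) were lower, at an adjusted p under 0.05. DESeq2 called 153 and 196 genes on the same sums. The 4 sums come from 2 libraries, which leaves 1 residual degree of freedom per gene. The block takes out the level of each library. The p-values therefore rest on how far the cell type difference disagreed between these libraries, and on a spread estimated over all genes. They cover no further libraries, and these 2 also differ in genotype. Genes of either rule were left out of all counts. The counts for gene lists below stand beside these shares of all tested genes, 6.69% higher and 9.14% lower in edgeR.

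The 10 named genes furthest above ON cone bipolar cells encode proteins of several kinds. Lrrtm4, which encodes a postsynaptic leucine-rich repeat protein (ENSMUSG00000052581; GRCm38 chromosome 6, 80018877 to 80810143, plus strand), had 145 UMIs (wild type) and 86 (db/db) in rod bipolar cells, against 1 and 3 UMIs in ON cone bipolar cells. Its ratio of CPM was 215 (37.9 to 8532) for wild type and 35.7 (11.8 to 177) for db/db, and edgeR gave a log2 fold change of 6.28 ± 0.38 (SE) with an adjusted p of 9.42e-41. Galnt17, a member of the GalNAc-transferase family, had 56 and 17 UMIs against 0 in both ON cone bipolar sums. With the count of 0 set to 3 UMIs per library, it stood 27.6-fold higher in the wild-type and 7.07-fold higher in the db/db library. Such floor values carry no counting interval and are no strict lower bounds. Tpbg, which encodes the surface glycoprotein 5T4, had 82 and 45 UMIs against 4 and 2, a log2 fold change of 4.88 ± 0.40 (SE, edgeR adjusted p 1.84e-25). Mdga1, whose RefSeq promoter window is printed above, had 58 and 41 UMIs against 3 and 2 (log2 4.76 ± 0.43, edgeR adjusted p 6.77e-22).

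Further genes named by the same rule were Tmem196, Slc4a4, Il1rap, Fam13c, Cep112 and Rph3a, with log2 fold changes between 4.64 for Rph3a and 6.42 for Tmem196. Slc4a4 encodes a sodium bicarbonate cotransporter, Il1rap a receptor subunit that also acts in synapse formation, and Rph3a rabphilin, a vesicle protein that binds Rab3. Cep112, a centrosomal protein gene, had the most UMIs among them, with 217 and 146 in rod bipolar cells and 13 and 6 in ON cone bipolar cells. All 10 genes were higher in rod bipolar cells in each library. DESeq2 called 9 of them, the exception being Galnt17 with its counts of 0 (DESeq2 adjusted p 0.593).

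The 10 genes furthest below ON cone bipolar cells were nearly undetected in rod bipolar cells, where Fn1 and Ccl3 had 1 UMI each in the db/db sum and all else was 0. Nxph1, which encodes neurexophilin, a neurexin ligand, had 86 UMIs (wild type) and 24 (db/db) in ON cone bipolar cells, so it was at least 19.4-fold and at least 6.42-fold lower in rod bipolar cells. Il1rapl2, encoding a synaptic adhesion receptor, had 51 and 49 UMIs in ON cone bipolar cells and stood 11.5-fold and 13.1-fold lower by the same floor. The phosphodiesterase gene Pde1a had 72 and 19 UMIs there, the neurokinin receptor gene Tacr3 65 and 6, the transcription factor gene Sox5 46 and 15, and Lamp5 37 and 14. For Tacr3 most UMIs came from the wild-type library, and by this floor it stood 14.6-fold lower there but 1.60-fold lower in db/db. The db/db value rests on 6 UMIs against 0 and does not secure a difference in that library. The chemokine genes Ccl4 and Ccl3 and the protease gene Ctss, which are genes of microglia and macrophages, had 382, 147 and 79 UMIs in wild-type ON cone bipolar cells and 1, 0 and 0 in db/db ones. DESeq2 called Fn1 alone among the 10 (DESeq2 adjusted p 0.000193), and the genes with 0 UMIs had DESeq2 adjusted p of 0.593 or more. For Ccl4, Ccl3 and Ctss the difference was seen in 1 library, and their calls were lost without the library block, with edgeR adjusted p of 0.0603, 0.0748 and 0.0896 for Ccl4, Ccl3 and Ctss.

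**Figure D2:**
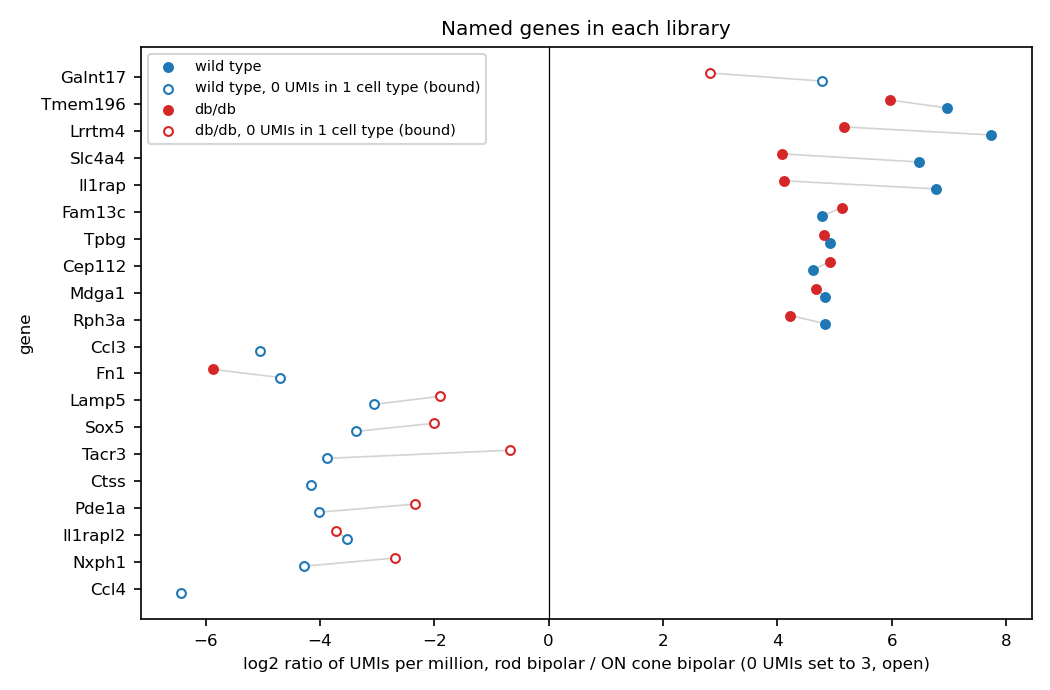
Log2 ratio of CPM between rod bipolar and ON cone bipolar cells for the 20 named genes, in the wild-type (blue) and the db/db library (red). Open symbols (labelled bound) mark genes where 1 cell type had 0 UMIs, set to 3, so that the value rests on this floor. The 10 higher genes lie right of 0 in each library; Ccl4, Ccl3 and Ctss have no db/db point because both cell types were at or under 3 UMIs there.

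Genes of the ON cascade outside the rules were mostly higher in rod bipolar cells, 7 of 9 tested against 1 lower. Rgs7, a GTPase-activating protein that shuts off Go, was at 113 and 126 CPM in rod bipolar cells and at 38.3 and 38.1 CPM in ON cone bipolar cells (log2 1.69 ± 0.24, edgeR adjusted p 7.96e-10). Gpr179, which holds the RGS proteins at the dendritic tip, and Gnao1, the Go alpha subunit, were higher by 0.82 ± 0.14 and 0.70 ± 0.12 on the log2 scale. Rgs11 did not pass, with a log2 fold change of 0.25 ± 0.16. Nyx, which encodes nyctalopin, a partner needed to place TRPM1 at the dendrite, was the member that was lower, at 42.5 and 35.1 CPM against 67.0 and 118 CPM (log2 -1.05 ± 0.27, edgeR adjusted p 0.00106). DESeq2 called 4 of the 9 higher and 0 lower.

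Marker genes that the rules did not use separated the types as well, with 5 of 8 higher and 2 lower in edgeR, and 5 higher and 0 lower in DESeq2. Strip2, a subunit of the STRIPAK phosphatase complex, was at 290 and 279 CPM against 65.3 and 49.7 CPM (log2 2.33 ± 0.18, edgeR adjusted p 1.33e-27), and Rpa1, a single-strand DNA binding protein, at 300.01 and 287 CPM against 91.4 and 82.9 CPM. Cabp5, a calcium-binding protein of bipolar cells, was lower in rod bipolar cells, at 596 and 667 CPM against 773 and 1090 CPM (log2 -0.47 ± 0.12, edgeR adjusted p 0.00139).

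Of 19 tested transcription factors of bipolar cells, 5 were higher and 11 lower in rod bipolar cells. Prdm8, a transcriptional repressor required for rod bipolar cells, was at 234 and 167 CPM against 30.5 and 28.2 CPM (log2 2.87 ± 0.22, edgeR adjusted p 2.83e-28). Bhlhe23, a factor of rod bipolar cells, was higher by 1.52 ± 0.20 on the log2 scale. The lower factors included Nfia and Nfix of the nuclear factor I family, at log2 -3.06 ± 0.19 and -2.58 ± 0.27, and Vsx1, Lhx3 and Irx6, factors of cone bipolar types, at log2 -3.50 ± 0.27, -3.51 ± 0.53 and -3.17 ± 0.44. OFF cone bipolar genes summed to 774 and 666 CPM in the ON cone bipolar cells, against 104.3 and 109.5 CPM in rod bipolar cells. The part of OFF-type RNA in these lower factors was not tested. Otx2 did not pass, at 503 and 519 CPM against 537 and 597 CPM (edgeR adjusted p 0.802). DESeq2 called 3 higher and 8 lower.

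Receptors for GABA and glycine and their partners were lower in rod bipolar cells in 10 of 14 tested genes and higher in 0, with DESeq2 calling 2 lower. Without the 25% of cells per library and type that were richest in rod RNA, 6 of 13 were lower and 1 higher. Gabbr2, a subunit of the GABA-B receptor, was at 7.73 and 4.13 CPM against 68.7 and 71.3 CPM (log2 -3.36 ± 0.41, edgeR adjusted p 2.55e-13). Gabrr2, a GABA-C subunit, was lower by 0.68 ± 0.16 on the log2 scale, whereas its partner Gabrr1 did not pass, at 209 and 254 CPM against 168 and 225 CPM (log2 0.31 ± 0.16).

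In the ribbon synapse and vesicle release list, 3 of 32 tested genes were higher, near the 6.69% over all tested genes. Lower were 9, beside 9.14% over all tested genes. Cplx3, a complexin of ribbon synapses, was at 988 and 1023 CPM against 675 and 602 CPM (log2 0.72 ± 0.12), and Unc13b, a vesicle priming factor, was higher by 0.56 ± 0.13. Its relative Unc13c was at 64.4 and 97.1 CPM against 562 and 429 CPM (log2 -2.62 ± 0.17, edgeR adjusted p 6.78e-36). Ctbp2, whose long isoform forms the ribbon, did not pass (log2 -0.13 ± 0.15). DESeq2 called 1 higher and 3 lower in this list. Among 19 tested calcium and potassium channel and pump genes, 3 were higher and 12 lower, while DESeq2 called 2 higher and 3 lower, and edgeR 3 higher and 8 lower of 17 without the cells richest in rod RNA. Cacna2d3, a calcium channel subunit, was at 624 and 612 CPM against 93.98 and 147 CPM, and Slc8a1, the sodium-calcium exchanger NCX1, at 18.03 and 18.6 CPM against 234 and 371 CPM.

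Most genes of the mitochondrial genome and 8 of 64 nuclear respiratory genes were higher in rod bipolar cells, and 12 of 21 glycolysis genes were lower. Of the 13 protein-coding genes of the mitochondrial genome, 10 were higher and 0 lower, with mt-Cytb at 10169 and 11843 CPM against 5905 and 7482 CPM (log2 0.79 ± 0.09, edgeR adjusted p 6.21e-15). Of 64 nuclear-encoded respiratory genes, 8 were higher and 0 lower, among them Ndufa4 at log2 0.84 ± 0.11. The lower glycolysis genes included aldolase C (Aldoc) at log2 -1.57 ± 0.17, and hexokinase 2 (Hk2) was higher at log2 0.64 ± 0.15. DESeq2 called 6 of the 13 mitochondrial genes, 2 of the 64 nuclear respiratory genes and 2 of the 21 glycolysis genes, in the same directions. The mitochondrial share of UMIs per cell had medians of 6.98% and 8.60% in rod bipolar cells and 4.56% and 5.81% in ON cone bipolar cells. The part of cell quality in the mitochondrial differences between the types was not tested.

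Marker genes of other cells differed between the cell types. Rod genes were higher in rod bipolar cells for 12 of 15 genes, and without the 25% of cells richest in rod RNA 1 was higher and 1 lower. Müller glia genes were lower for 10 of 10 tested, and for 4 of 4 tested without cells over 0.3% Müller UMIs. That limit was passed by 41 of 240 wild-type and 12 of 149 db/db ON cone bipolar cells, compared with 4 and 2 rod bipolar cells. OFF cone bipolar genes were lower for 9 of 9 tested, amacrine genes for 3 of 3, microglia genes for 2 of 2 and endothelial genes for 2 of 2. Genes entered the test by their UMIs summed over both cell types. In rod bipolar cells the whole OFF cone bipolar list had 81 and 53 UMIs and the amacrine list 78 and 53. The microglia list had 5 and 3 and the endothelial list 44 and 12. Most tested members of these lists therefore passed the minimum through their ON cone bipolar UMIs. The counts of lower genes could hardly have differed and say little about the lists as a whole. The part of Müller glia and of the other listed cells in the lower calls was not tested. Immediate early genes, which neurons and glia induce within minutes of stimulation, were lower in rod bipolar cells for 9 of 14 genes and higher for 0. Once cells of either type over 0.3% Müller UMIs were left out, 2 of 13 were lower and 2 higher.

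The comparison of genotypes asked how rod bipolar cells differ between db/db and wild-type retina. Most genes lay close to level. Over 4630 genes with at least 50 UMIs in sum, which are called measured here, the log2 ratio of db/db to wild type had a median of -0.03 with quartiles at -0.24 and 0.18. Past 2-fold, 21 genes (0.454%) were higher and 62 (1.34%) were lower in the db/db library, and 46.4% of genes had a ratio above 1 and 53.6% below 1. Without the 6 cells over 0.3% Müller UMIs, 20 genes were higher and 34 lower.

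**Figure D3:**
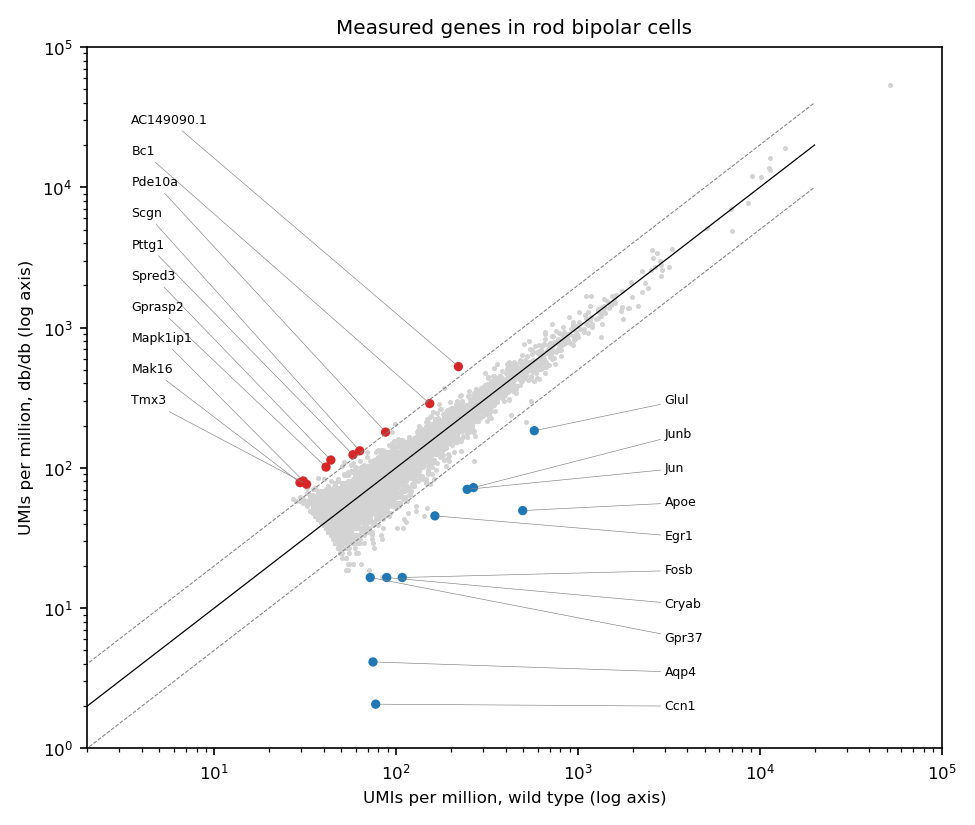
Summed level of each measured gene in rod bipolar cells of the wild-type (x) and the db/db library (y), in CPM on log axes, with equality as a solid line and 2-fold as dashed lines. The 10 named higher genes are red and the 10 named lower genes blue; Ccn1 and Aqp4, with 1 and 2 db/db UMIs, lie furthest below the line.

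The genes that identify the cell type lay on both sides of equality. Of 14 measured rod bipolar markers 7 were higher and 7 lower in db/db cells, with a median log2 ratio of 0.01. Prkca had a log2 ratio of -0.16 (-0.31 to -0.01), Car8 0.22 (0.02 to 0.41), Vstm2b 0.09 (-0.26 to 0.42) and Sebox 0.30 (0.07 to 0.54). The rule took a minimum from the sum of these 4 genes, so their values describe the chosen cells. Of 13 measured ON cascade genes 8 were higher and 5 lower (median 0.03), and 4 of the list, Trpm1, Grm6, Pcp2 and Gng13, also chose the cells. Grm6, the receptor, was at 211 CPM (wild type) and 273 CPM (db/db), a log2 ratio of 0.37 (0.03 to 0.71), and Gng13, a G protein gamma subunit, was at 2725 and 3388 CPM (0.31, 0.22 to 0.41). Trpm1, at the end of the cascade, had a log2 ratio of -0.18 (-0.28 to -0.08). Outside the rule, Gpr179 stood at -0.20 (-0.43 to 0.04) and Gnao1 at -0.07 (-0.24 to 0.09), both with intervals that include 0.

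Of 16 measured transcription factors 10 were higher and 6 lower in db/db rod bipolar cells (median 0.05), but in cells free of other markers 4 of 13 were higher and 9 lower (median -0.15). Prox1, a homeodomain factor of bipolar, horizontal and AII amacrine cells, was at 657 CPM (wild type) and 936 CPM (db/db), a log2 ratio of 0.51 (0.33 to 0.70). Prdm8 was at 234 and 167 CPM (-0.49, -0.88 to -0.10). Otx2 stood at 0.04 (-0.19 to 0.28). Among the 63 db/db and 95 wild-type cells free of other cells' markers, Prox1 stood at 0.40 and Prdm8 at -0.68.

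Synaptic genes showed small ratios. In the list of inhibitory receptors 5 of 7 measured genes were higher and 2 lower (median 0.25), and the median was 0.04 in cells free of other markers and -0.0039 in cells with at least 6 rod bipolar UMIs. Of 26 ribbon and release genes 18 were higher and 8 lower (median 0.06). Without Müller-rich cells 14 were higher and 11 lower (median 0.013), and in cells free of other markers 11 were higher and 11 lower (median 0.0019). Unc13b was at 406 and 545 CPM (0.43, 0.19 to 0.67), and Rab6b, a Golgi-trafficking GTPase, at 83.7 and 51.7 CPM (-0.70, -1.42 to -0.01). Of 9 channel and pump genes 3 were higher and 6 lower (median -0.12).

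**Figure D4:**
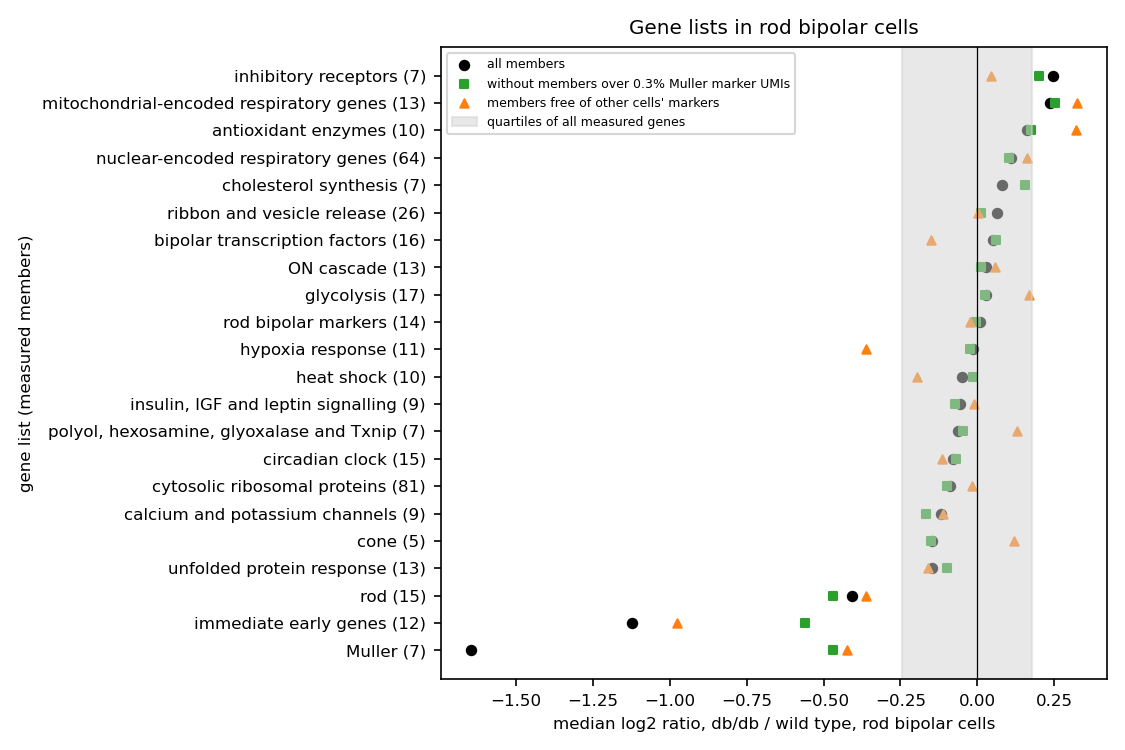
Median log2 ratio of db/db to wild type over the measured genes of each list in rod bipolar cells, for all cells (black circles), without cells over 0.3% Müller marker UMIs (green squares) and for cells free of other cells' markers (orange triangles), beside the quartiles of all measured genes (grey band). Müller, immediate early and rod genes lie left of the band in all 3 sets; mitochondrial-encoded genes lie right of it. The Müller list keeps 2 measured genes without Müller-rich cells and 1 in the marker-free cells.

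Immediate early genes were lower in the db/db cells for 12 of 12 measured genes, with a median log2 ratio of -1.12. Junb, a subunit of the AP-1 factor, had 207 UMIs (wild type) and 35 (db/db), 267 and 72.3 CPM, a log2 ratio of -1.88 (-2.44 to -1.36). Jun, another AP-1 subunit, was at 246 and 70.2 CPM (-1.81, -2.38 to -1.28), Fos at 521 and 213 CPM (-1.29, -1.62 to -0.98), and the zinc finger factor Egr1 at 164 and 45.5 CPM (-1.85, -2.57 to -1.19). Btg2 had the ratio nearest to level, -0.21 (-0.49 to 0.08).

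A few cells carried much of this RNA. The 4 wild-type rod bipolar cells over 0.3% Müller UMIs held 724 of the 1782 wild-type immediate early UMIs and 1024 of the 1287 Müller UMIs, and they were deep, with a median of 11675 UMIs. The 3 cells richest in Junb held 50.7% of its wild-type UMIs, and those richest in Fosb held 85.7%. Without the 4 wild-type and 2 db/db cells over the Müller limit, 9 of 11 measured genes were lower, with a median of -0.56. Junb stood at -1.03, Egr1 at -1.03, Jun at -0.86 and Fos at -0.56, while Fosb stood at 0.035. In the cells free of all other markers, 5 of 6 measured genes were lower (median -0.98), and Junb had 62 wild-type and 16 db/db UMIs, a log2 ratio of -1.34 (-2.23 to -0.52).

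Per cell, Junb was detected in 37.1% of wild-type and 26.4% of db/db rod bipolar cells, and in 33.7% and 22.2% of those free of other markers. Jun was detected in 36.5% and 19.8% of cells, and Egr1 in 27.0% and 11.3%. The same list had a median of -1.76 in ON cone bipolar cells, where it was in turn accompanied by Müller genes with a median of -2.05. In all other kept cells the median of the immediate early list was -0.35. The part of mixed cells in the ratios that remained was not tested.

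**Figure D5:**
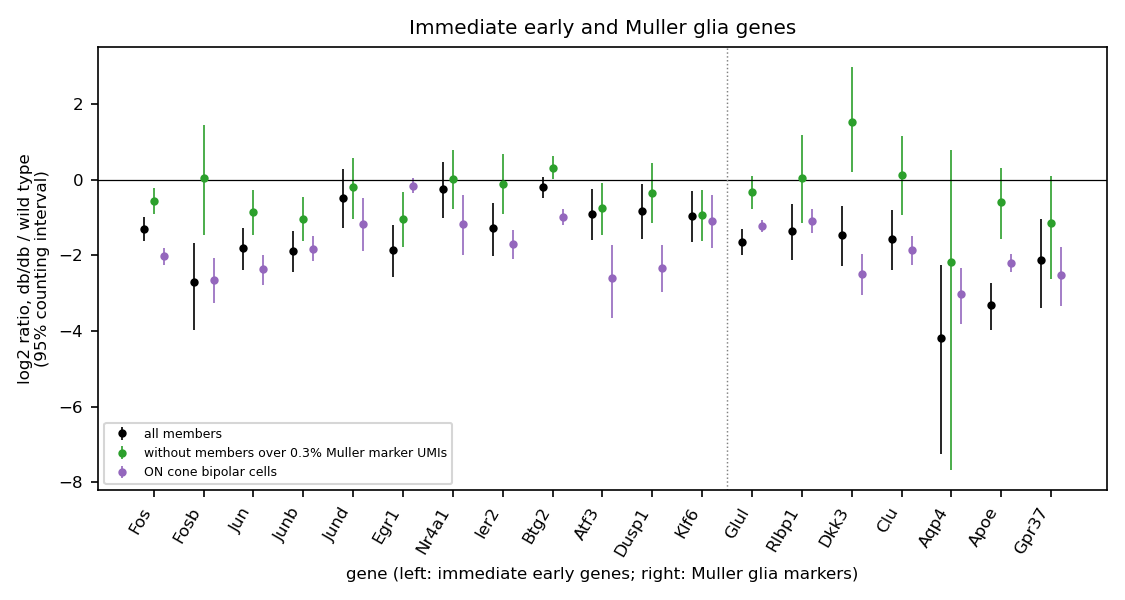
Log2 ratio of db/db to wild type with 95% counting intervals for 12 immediate early genes (left) and 7 Müller glia genes (right), for all rod bipolar cells (black), without cells over 0.3% Müller marker UMIs (green) and for ON cone bipolar cells (purple). Without the Müller-rich cells Junb moves from -1.88 to -1.03, Egr1 from -1.85 to -1.03 and Fosb from -2.71 to 0.035.

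Müller glia genes were lower in the db/db cells for 7 of 7 measured genes, with a median of -1.65. Most of the 7 were measured only through their wild-type UMIs, so this count could hardly have differed. The sum of all 11 listed genes, which needs no minimum, was 1287 and 195 UMIs, or 1657 CPM (wild type) and 403 CPM (db/db). Without the Müller-rich cells 2 genes stayed measured, both lower. The sum was then 360 and 295 CPM (log2 -0.29, -0.60 to 0.01). Apoe, an apolipoprotein secreted by glia, had 386 and 24 UMIs, and 89.1% of the wild-type UMIs lay in 3 cells. Glul, glutamine synthetase, had 447 and 89 UMIs, and 59.5% of the wild-type UMIs lay in 3 cells. Without the Müller-rich cells Apoe stood at -0.60 (35 and 15 UMIs) and Glul at -0.34 (136 and 70 UMIs). The named lower genes Aqp4, the glial water channel, and Gpr37 belong to the same list, and Ccn1, a matrix protein gene with 60 wild-type UMIs and 1 db/db UMI, had 1 UMI in each library without those cells. Cryab, a small heat shock protein gene, had 69 and 8 UMIs, a log2 ratio of -2.43 that was -1.97 without the Müller-rich cells and -0.70 in cells free of other markers.

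The named genes higher in db/db rod bipolar cells were of low abundance. Spred3, an inhibitor of Ras signalling, had 34 UMIs (wild type) and 55 (db/db), 43.8 and 114 CPM, a log2 ratio of 1.38 (0.73 to 2.04). Pde10a, a phosphodiesterase for cAMP and cGMP, was at 87.6 and 180 CPM (1.04, 0.56 to 1.52), and Bc1, a noncoding RNA of neuronal dendrites, at 153 and 287 CPM (0.91, 0.54 to 1.27). In cells free of other markers these 3 genes stood at 1.39, 1.27 and 0.95. In ON cone bipolar cells their log2 ratios were 0.07, -0.04 and 0.25. The difference between the cell types in these ratios was not tested.

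The other named higher genes were Mak16 (1.41), Mapk1ip1 (1.38), Gprasp2 (1.30), AC149090.1 (1.26), Tmx3 (1.25), Pttg1 (1.10) and Scgn (1.07), each value being a log2 ratio. Mak16 is a ribosome assembly factor gene, Gprasp2 encodes a sorting protein for G protein-coupled receptors, and Pttg1 encodes securin. AC149090.1, a protein-coding model on an unplaced contig, was also higher in ON cone bipolar cells (1.53) and in all other cells (1.52). Scgn marks ON cone bipolar cells. It had 49 and 64 UMIs, which lay in 13 of 159 wild-type and 17 of 106 db/db cells, and 1 and 2 UMIs in cells free of other markers.

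Mitochondrial-encoded respiratory genes were higher in the db/db library for 10 of 13 genes and lower for 3, with a median of 0.23. Their sum was 66115 CPM (wild type) and 81722 CPM (db/db). mt-Co3 was at 11336 and 16235 CPM (0.52, 0.47 to 0.56), mt-Co1 at 9070 and 12099 CPM (0.42, 0.37 to 0.47), and mt-Nd4 was at 5099 and 5097 CPM. The median was 0.32 in cells free of other markers and 0.34 in ON cone bipolar cells. Nuclear-encoded respiratory genes had 42 of 64 higher and a median of 0.11, with Ndufa5 at 344 and 514 CPM (0.58, 0.33 to 0.84). These genes make up most of the mitochondrial share used to filter cells (medians 6.98% and 8.60%), and the part of cell quality in the ratios was not tested.

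Among lists for the metabolic and stress pathways studied in diabetes, medians over all rod bipolar cells lay between -0.15 and 0.16. In cells free of other markers they reached -0.36 for the hypoxia response, with 1 of 5 genes higher, and 0.32 for antioxidant enzymes, with 6 of 8 higher, and heat shock genes stood at -0.20, with 1 of 6 higher. The unfolded protein response had 8 of 13 genes lower (median -0.15, but 0.17 after subtraction of rod RNA), with the chaperone gene Hspa5 at 420 and 306 CPM (-0.46, -0.75 to -0.17) and Dnajb9 at 74.7 and 28.9 CPM (-1.37, -2.33 to -0.51). Antioxidant enzymes had 6 of 10 higher (median 0.16), and their lowest member was Prdx6, a peroxiredoxin also abundant in glia, at 143 and 45.5 CPM (-1.65), which stood at -0.45 without the Müller-rich cells. Glycolysis had 11 of 17 genes higher (median 0.03) and insulin, IGF and leptin signalling 4 of 9 (median -0.06), with the insulin receptor gene Insr at 51 and 25 UMIs (-0.35, -1.10 to 0.37). Circadian clock genes had 11 of 15 lower (median -0.08), with Bhlhe40 at -0.67 (-1.29 to -0.09) and Arntl at 0.64 (-0.04 to 1.33). These counts stand beside 46.4% of all measured genes with a ratio above 1 and 53.6% below 1.

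Rod genes were lower in the db/db rod bipolar cells for 15 of 15 genes, with a median of -0.41. Their sum was 26186 CPM (wild type) and 19460 CPM (db/db), which is 0.394 and 0.301 of their level over all kept cells. The subtraction of rod RNA was scaled by these shares, so the median of 0.35 after it cannot bear on the rod genes themselves. In cells free of other markers 12 of 15 were lower (median -0.36). Haemoglobin and other red cell genes summed to 4 UMIs in wild-type cells against 21 among db/db cells, 5.15 and 43.4 CPM, and to 2744 and 8626 CPM in all other kept cells. Cytosolic ribosomal protein genes had 61 of 81 lower with a median of -0.09, which was -0.02 in cells free of other markers.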

How the data were processed

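Single-cell RNA of retina was measured in 1 library per genotype. The authors deposited raw UMI counts per gene and cell barcode, and the file headers name cellranger 6.0.1. The mm10 genome is named in the submitters' processing notes. For annotation release, cell calling and read strand, the method is not given in the sources used here. Deposited totals were 35642274 UMIs over 10308 barcodes (wild type) and 33742189 over 11083 (db/db), with a lowest barcode of 508 and 500 UMIs. The gene minimum removed 1 and 7 barcodes and the mitochondrial limit concerned 77 and 113.

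The members and gene lists were chosen with earlier results of these data known. Doublets were scored per library with Scrublet in scanpy 1.11.5, which marked 0 and 2 cells and so did not work. Doublets stayed in. One alternative dropped the top-scoring 8% of cells, 30 wild-type and 12 db/db rod bipolar cells among them. UMIs were summed over cells per library and type and scaled to CPM. Ratios have exact conditional intervals, shares exact Clopper-Pearson intervals, both at 95% and for counting error only; PCR duplicates are removed by UMIs. For ratios, 3 UMIs replaced a 0, and no ratio is given where both counts were 3 or fewer.

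Rod bipolar and ON cone bipolar sums were tested with edgeR 4.0.16 in R 4.3.3 on genes with at least 50 UMIs over the 4 sums, with TMM scaling and library as a block, and with DESeq2 1.42.0 as an alternative. Named genes were, between genotypes, the 10 highest and 10 lowest by the interval bound nearest 0 among measured genes with a CPM no lower than 0.5 times the level of the whole library, and, between cell types, the 10 largest log2 fold changes per direction among called genes. Mitochondrial, ribosomal protein, haemoglobin, Gm, Rik, rod marker and 6 sex-linked genes were left out. Described lists are represented by members with at least 50 UMIs, up to 4 for pathway lists; Fos, Btg2, mt-Nd4 and the pathway examples between cell types were picked after their values were seen. Positions are from GENCODE M21 (GRCm38), found for 32235 of 32285 genes. Alternatives changed the cell filters, thinning, doublets, scaling, weights, gene minimum and rod RNA; those that left out Müller-rich or otherwise mixed cells were added after seeing the data. Some listed genes are counted within their lists but not reported here by name.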

Additional observations from a re-analysis of the deposited data

How the results depend on the processing

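The ratio of rod bipolar shares kept its direction in all 7 alternatives, from 0.528 under a mitochondrial limit of 10% up to 0.715 in thinned cells. The counts of genes past 2-fold between genotypes (21 higher, 62 lower) rested on low counts. They were 1 and 6 at a minimum of 200 UMIs, 13 and 23 after thinning to 2000 UMIs, 8 and 41 in cells free of other markers, and 292 and 195 after subtraction of rod RNA. The higher count was 10 when the top 8% by doublet score were dropped and 8 without the 25% richest in rod RNA, and the lower count was 34 without Müller-rich cells. Of 22 list medians, 16 had the opposite sign under at least 1 alternative. The 6 that kept their sign in all alternatives run were those of immediate early, Müller, mitochondrial-encoded and nuclear-encoded respiratory, antioxidant, and ribbon and release genes. Transcription factors reached -0.157, channels 0.0205, hypoxia genes 0.201, and glycolysis genes -0.035. Larger medians changed sign for inhibitory receptors at a minimum of 6 rod bipolar UMIs (-0.0039), and after rod RNA subtraction for the unfolded protein response (0.17), rod genes (0.35) and cone genes (0.17). That subtraction was scaled to the rod genes, so it cannot test their own sign. Cone genes also changed sign without top doublet scores (0.26) and with equal weight per cell (0.10). Apoe was at 0.62 (9 wild-type and 9 db/db UMIs) and Fosb at 1.20 (4 and 6 UMIs) in cells free of other markers. Both counts are under the 50 UMIs set for a measured gene. Fosb was at 0.035 without Müller-rich cells. Of the cell type calls (538 higher, 735 lower), DESeq2 gave 153 and 196, a minimum of 200 UMIs, which tested 3069 genes, 299 and 328, and the fit with no library block 294 and 432. The cause of these shifts was not tested, except that the stricter minimums test fewer genes. Leaving out 1 library would leave no residual degrees of freedom, so no such count was run. No paired analysis was possible because each genotype had 1 library. In the cell type fit library was the block. The depth limits genes near 50 UMIs most, as their counting intervals span more than 1 log2 unit.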

Other observations

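The naming rule was also applied to the 95 wild-type and 63 db/db rod bipolar cells free of other cells' markers, a step added after seeing the data. Of its 10 higher genes, AC149090.1, Bc1 and Pde10a had also been named over all cells. The others included Nme1, a nucleoside diphosphate kinase gene, with 517 wild-type and 553 db/db UMIs and 1426 and 2341 CPM, a log2 ratio of 0.72 (0.54 to 0.89). Mif, which encodes the macrophage migration inhibitory factor, was at 656 and 965 CPM (0.56, 0.29 to 0.82), and Cygb, cytoglobin, at 119 and 237 CPM (0.9995, 0.40 to 1.61). Over all rod bipolar cells these 3 genes had log2 ratios of 0.59, 0.44 and 0.92.

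Of the 10 lower genes in these cells, Junb had also been named over all cells. Adamts5, a matrix protease gene, had 232 wild-type and 70 db/db UMIs, 640 and 296 CPM, a log2 ratio of -1.11 (-1.52 to -0.72), and stood at -0.84 over all rod bipolar cells. Rgs16, a regulator of G protein signalling, was at 356 and 178 CPM (-1.001, -1.54 to -0.49), and Cdk5r1, the p35 activator of the kinase Cdk5, at 179 and 76.2 CPM (-1.23, -2.08 to -0.46). Ppp1r9b, which encodes the spine scaffold spinophilin, was at 121 and 29.6 CPM (-2.03, -3.43 to -0.87). None of these differences has a replicate check.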
